A study of Mus musculus with 36 samples.

Results

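The 7 receptors described here are the neuropeptide Y receptors Npy1r, Npy2r and Npy5r, the melanocortin receptors Mc3r and Mc4r, the ghrelin receptor Ghsr and the glucagon-like peptide-1 receptor Glp1r. They were taken as the rows whose gene symbol matched in both deposited tables, which gave 7 of 24883 rows, and all 7 were among the 15173 rows with a mean high enough to be tested. RNA came from a dissected region enriched for the suprachiasmatic nucleus (SCN), the hypothalamic nucleus that holds the central circadian clock, in adult C57BL/6J mice. One group of mice had eaten normal chow for 10 weeks and the other a high-fat diet for 10 weeks. In each diet, 3 libraries were made at each of 6 times of day, which gave 12 groups and 36 libraries. Times are zeitgeber times (ZT, in hours), as the file headers name them. All animals were of 1 strain, and the labels also call the material a brain homogenate. No label ties the 3 libraries of a group to individual animals, and p-values therefore measure only the spread between these samples. Each diet was deposited as a table of its own, so diet and table cannot be told apart.

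These receptors carry signals of hunger and satiety. Neuropeptide Y (NPY) and agouti-related peptide are released by hunger-promoting neurons of the arcuate nucleus, and melanocortins are cut from the Pomc precursor in a second, satiety-promoting population. Melanocortins activate Mc3r and Mc4r, and agouti-related peptide blocks both. Ghrelin from the stomach acts on Ghsr to raise food intake, and glucagon-like peptide-1 acts on Glp1r to lower it. In the SCN, NPY is also the transmitter of a projection from the intergeniculate leaflet of the thalamus that carries non-photic time cues to the clock.

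The receptors were selected on earlier results of these data, in which Npy2r had one of the smallest p-values for a difference in daily pattern between diets. Its time course is therefore given as a description, without a test, and the other 6 receptors were tested against all genes.

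The dissected tissue held more than the SCN. All 10 SCN markers, such as Vip and Six6, were above 0 in every library, and their summed level ran from 69.2 to 268 (rescaled FPKM). All 6 markers of the paraventricular and supraoptic nuclei were measured too, and their sum ran from 603 to 5367. Several libraries stood apart. The summed level of 8 liver markers was 5074 in chow ZT 0 replicate 1, 1174 in chow ZT 4 replicate 1 and 862 in high-fat ZT 0 replicate 3, against a median of 57.5. The summed level of striatal, cortical and thalamic markers was 1181 in chow ZT 12 replicate 3 and 1850 in high-fat ZT 16 replicate 3, against a median of 172. These 3 are called liver-rich and these 2 striatum-rich below, and results that moved most without them are given both ways. Depth in reads is unknown from FPKM (fragments per kilobase of transcript, scaled to the library's mapped fragments). A rough comparison over 1544 low genes put the deepest library at 1.79 times the shallowest.

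Npy1r and Npy5r are neighbours in the genome. Their co-variation and the time course of Npy2r are described further on, so the letters around the 3 start sites are shown. On GRCm38 (GENCODE M21), Npy5r lies on the minus strand at chr8:66679965-66688128 and Npy1r on the plus strand at chr8:66697192-66706792. They are read away from each other from start sites 9064 bp apart. Npy2r lies alone on the minus strand at chr3:82538383-82548084. No exon of any of the 7 receptors overlapped an exon of another annotated gene on either strand. RefSeq promoter windows on GRCm38.p6, from 250 bases before to 50 bases after the RefSeq start, matched 6 of the 7 receptors. The RefSeq start lies 230 bp downstream of the GENCODE start for Npy1r, so most of that window falls inside the GENCODE gene, and 34 bp downstream for Npy5r. The Npy2r starts are 1 bp apart. The windows are written 5′ to 3′ on the gene's strand, and capitals mark an E-box, the letters CACGTG that clock proteins of the CLOCK and BMAL1 pair can bind.
Npy5r, chr8:66688045-66688344, minus strand: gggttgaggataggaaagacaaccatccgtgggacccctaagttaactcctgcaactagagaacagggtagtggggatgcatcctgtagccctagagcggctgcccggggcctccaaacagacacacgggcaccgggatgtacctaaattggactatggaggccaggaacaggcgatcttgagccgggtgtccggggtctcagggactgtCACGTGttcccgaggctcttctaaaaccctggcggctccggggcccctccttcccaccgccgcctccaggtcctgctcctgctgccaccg
Npy1r, chr8:66697172-66697471, plus strand: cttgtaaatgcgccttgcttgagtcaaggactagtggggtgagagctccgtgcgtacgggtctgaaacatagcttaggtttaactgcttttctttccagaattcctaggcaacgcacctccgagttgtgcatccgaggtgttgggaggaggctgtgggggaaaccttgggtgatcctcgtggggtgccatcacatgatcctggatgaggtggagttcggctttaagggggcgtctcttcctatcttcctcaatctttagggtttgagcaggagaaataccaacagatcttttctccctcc
Npy2r, chr3:82548036-82548335, minus strand: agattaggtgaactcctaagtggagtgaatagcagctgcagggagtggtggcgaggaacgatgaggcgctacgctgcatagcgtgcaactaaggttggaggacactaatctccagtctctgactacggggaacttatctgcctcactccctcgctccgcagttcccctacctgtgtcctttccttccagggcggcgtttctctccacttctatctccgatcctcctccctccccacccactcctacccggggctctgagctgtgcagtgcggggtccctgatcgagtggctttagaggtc

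The Npy5r window held 1 E-box, whose first base lay at −40 from the start. Of 32851 mouse promoter windows of this length, 7.15% held these letters. The cyclic AMP response element TGACGTCA and the D-box TTATGTAA, searched on both strands, were in none of the 6 windows, and 1.79% and 0.938% of all windows held them. CACGTG and TGACGTCA read the same on both strands, and no motif overlapped another. A match describes letters only.

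Npy2r and Npy1r were the most abundant of the 7. Levels are FPKM rescaled to a sum of 1000000 in each library, a measure per transcript length. Npy2r, the receptor that also sits on NPY-releasing endings as an autoreceptor, averaged 22.2 ± 4.01 (SD, n = 36) and ran from 13.2 to 29.9. Its mean exceeded that of 52.7% of the genes tested. Npy1r, which mediates feeding responses to NPY, averaged 14.4 ± 2.54 and ran from 10.3 to 21.1. Npy5r, the other feeding receptor for NPY, averaged 6.21 ± 1.07 and ran from 4.63 to 9.07. Npy2r was above Npy1r in 34 of 36 libraries and Npy1r above Npy5r in all 36, with ranges that did not overlap in the latter pair.

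Glp1r (chr17:30901817-30940791, plus strand, 13 exons in its longest transcript) averaged 6.13 ± 1.62 and could not be ordered against Npy5r, which was higher in 17 of 36 libraries. Mc3r (chr2:172248492-172251114, plus strand, 1 exon) averaged 5.24 ± 1.09 and was below Glp1r in 27 of 36. Mc4r, also a gene of 1 exon, averaged 4.63 ± 0.918 and was below Mc3r in 22 of 36. Ghsr (chr3:27371351-27378010, plus strand) averaged 2.86 ± 0.835 and was below Mc4r in all 36, though their ranges over libraries overlapped. Ghsr and Glp1r varied most between libraries, with coefficients of variation of 29.2% and 26.4%, against 17.2% to 20.7% for the other 5. In bulk tissue, fewer cells that carry a receptor and less RNA in each of them cannot be told apart.

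Averaged over the day, none of the 7 receptors differed detectably between diets. Npy2r averaged 22.4 ± 3.89 under chow and 22.0 ± 4.23 under high-fat diet (SD, n = 18 each). Npy1r averaged 14.5 ± 2.67 and 14.3 ± 2.49, and Npy5r 6.31 ± 1.10 and 6.11 ± 1.07. Mc3r averaged 5.18 ± 1.25 under chow and 5.30 ± 0.923 under high-fat diet, and Mc4r 4.67 ± 0.911 and 4.59 ± 0.949. Ghsr averaged 2.91 ± 0.787 and 2.81 ± 0.901, and Glp1r 6.06 ± 1.58 and 6.19 ± 1.70. All 7 pairs of ranges overlapped, and every mean difference was smaller than either SD.

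The log2 differences, high-fat minus chow with time of day as a factor, ran from −0.05 (SE 0.12) for Ghsr to 0.04 (SE 0.09) for Mc3r. They are on the log2(value + 1) scale, which understates the change of low genes such as Ghsr. By limma with Benjamini-Hochberg adjustment over all genes, 0 of 7 were called at an adjusted p under 0.05, where 0.0132% of all genes were called, and 0 of 7 had an unadjusted p under 0.05, where 2.56% of all genes did. The median difference was −0.02 over the 7 and 0.00 over all genes. The signs of these small differences turned for Npy1r, Npy2r, Mc4r, Ghsr and Glp1r under alternatives or without single libraries, as given at the end, so no direction is read from them.

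**Figure D1:**
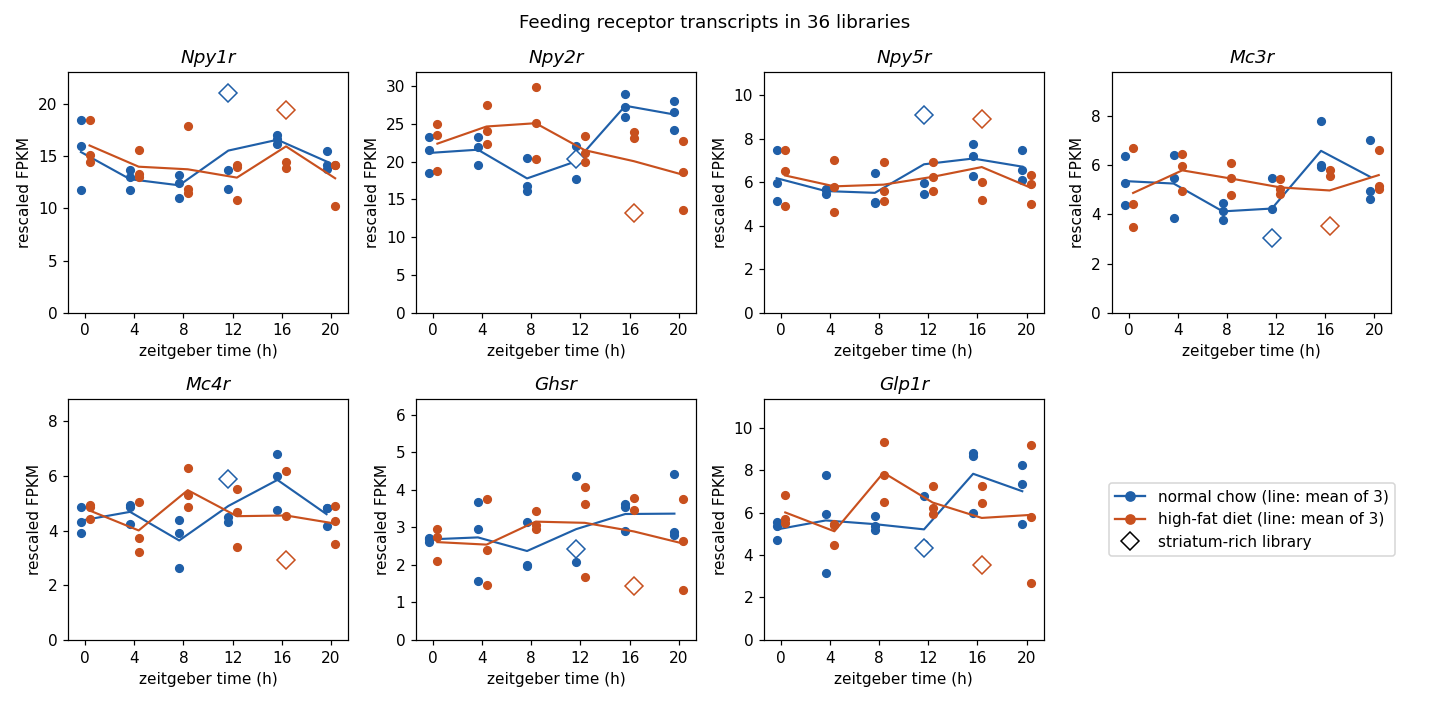
Level of each receptor (rescaled FPKM, vertical axis from 0) in all 36 libraries by zeitgeber time (hours, horizontal axis); points are libraries, lines join the means of 3 libraries, and open diamonds are the 2 striatum-rich libraries. Npy2r under chow was highest at ZT 16 and ZT 20 (24.1 to 29.0), where the high-fat libraries lay between 13.2 and 23.9.

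By limma, 0% of all genes were called for a difference in rhythm between diets. The Npy2r means of the 2 diets followed different daily courses, a pattern known when the receptor was chosen and given here without a test. Under chow its 3 libraries read 18.6, 21.6 and 23.3 at ZT 0, then 22.0, 19.6 and 23.2 at ZT 4. They read 20.4, 16.1 and 16.8 at ZT 8 and 17.8, 22.1 and 20.3 at ZT 12. At ZT 16 they read 25.9, 29.0 and 27.3, and at ZT 20 26.6, 24.1 and 28.0. After rescaling, all 6 chow libraries of ZT 16 and ZT 20 were therefore above all 12 chow libraries of the other hours. The margin was narrow, 24.1 against 23.3. In FPKM as deposited the split did not hold, with ZT 20 replicate 2 at 8.68 and ZT 4 replicate 3 at 9.03. The share of all genes with such a split was not computed.

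Under high-fat diet Npy2r read 24.9, 18.7 and 23.5 at ZT 0 and 27.5, 24.1 and 22.3 at ZT 4. It read 20.3, 29.9 and 25.1 at ZT 8 and 20.0, 23.4 and 21.1 at ZT 12. It read 23.1, 23.9 and 13.2 at ZT 16 and 18.6, 22.7 and 13.5 at ZT 20. The high-fat means were thus highest at ZT 4 and ZT 8, at 24.6 ± 2.65 and 25.1 ± 4.80, and lowest at ZT 20, at 18.3 ± 4.58 (SD, n = 3 each).

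A 24 h cosine fitted to the chow libraries had its Npy2r peak at ZT 18.9 with a peak-to-trough fold of 1.43. The cosine of the high-fat libraries had its peak at ZT 6.09 with a fold of 1.36. The high-fat value was below every chow library at ZT 16 and at ZT 20, by log2 differences of −0.47 (SE 0.18) and −0.53 (SE 0.18). At ZT 8 the high-fat libraries were higher by 0.47 (SE 0.18), and the groups overlapped by a narrow margin, 16.1 to 20.4 against 20.3 to 29.9.

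Single libraries weighed on these Npy2r values. The lowest of all 36, 13.2, was the striatum-rich high-fat ZT 16 replicate 3, and without it the ZT 16 log2 difference was −0.21. High-fat ZT 20 replicate 3, at 13.5, had the highest lateral hypothalamic marker sum of all libraries, 2019 against a median of 313, and without it the ZT 20 difference was −0.34. High-fat ZT 8 replicate 2, the highest Npy2r library after rescaling, had the lowest marker sums for the SCN, the arcuate and the paraventricular and supraoptic nuclei. It also had the highest pan-neuronal sum, 4914, and the lowest FPKM sum, 302899 against a median of 379447. As deposited its Npy2r was 9.05, below the 10.9 of chow ZT 16 replicate 2. Without this library the ZT 8 difference was 0.33. Without the 5 liver-rich and striatum-rich libraries the fitted peaks were at ZT 19.1 under chow and ZT 7.18 under high-fat diet. That fit kept high-fat ZT 20 replicate 3 and ZT 8 replicate 2, and it describes the values for which Npy2r was chosen. Another fit took the marker scores of 5 regions other than the SCN and of meninges as covariates. The fitted log2 peak-to-trough differences were then 0.46 under chow with a peak at ZT 18.04 and 0.45 under high-fat diet with a peak at ZT 6.05. Without the covariates they were 0.52 and 0.45. With them, the genes called for a chow rhythm fell from 128 to 1. This fit too describes the values for which Npy2r was chosen, and whether tissue makeup shaped its course was not tested.

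When both diets were fitted with 1 shared cosine, the 6 receptors other than Npy2r had folds of 1.10 to 1.16. By limma, adjusted p ran from 0.484 to 0.783, so 0 of 6 were called, where 2.18% of all genes were. An unadjusted p under 0.05 was found for 0 of 6 and for 13.1% of all genes.

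In chow, none of the other 6 receptors passed the test for a rhythm. Their fitted peaks ran from ZT 17.0 for Npy5r to ZT 20.0 for Mc3r, with folds from 1.25 for Npy5r to 1.36 for Glp1r. The share of all genes with fitted peaks in this span was not computed. Peaks of receptors that varied together over the same libraries, such as Npy1r and Npy5r, are not separate observations. By limma, adjusted p ran from 0.277 to 0.416, and 0 of 6 were called, where 0.845% of all genes were. An unadjusted p under 0.05 was found for 0 of 6 and for 18.2% of all genes. The median fold of the 6 was 1.28, against 1.14 over all genes tested in chow.

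Under high-fat diet the 6 folds were 1.07 to 1.26, and 0 of 6 were called, where 0.0728% of all genes were. An unadjusted p under 0.05 was found for 0 of 6 and for 8.64% of all genes. Fitted peaks lay at ZT 5.39 for Mc3r, ZT 8.83 for Mc4r, ZT 9.30 for Glp1r and ZT 10.6 for Ghsr. Npy5r and Npy1r had theirs at ZT 15.4 and ZT 22.3. The median fold was 1.10 over the 6 and 1.15 over all genes.

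The difference in rhythm between diets was called for 0 of 6 receptors and for 0% of all genes by limma, and an unadjusted p under 0.05 was found for 0 of 6 and for 13.2% of all genes. Among the 6, Glp1r had the smallest adjusted p, 0.419, and Npy5r the largest, 0.711. The 5 diet by time point terms gave 0 of 6 receptors called and 0% of all genes, and an unadjusted p under 0.05 for 0 of 6 and 5.09% of all genes. The smallest unadjusted p by limma was 0.0583, for Mc4r. A p that misses the threshold does not show that the courses were alike.

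**Figure D2:**
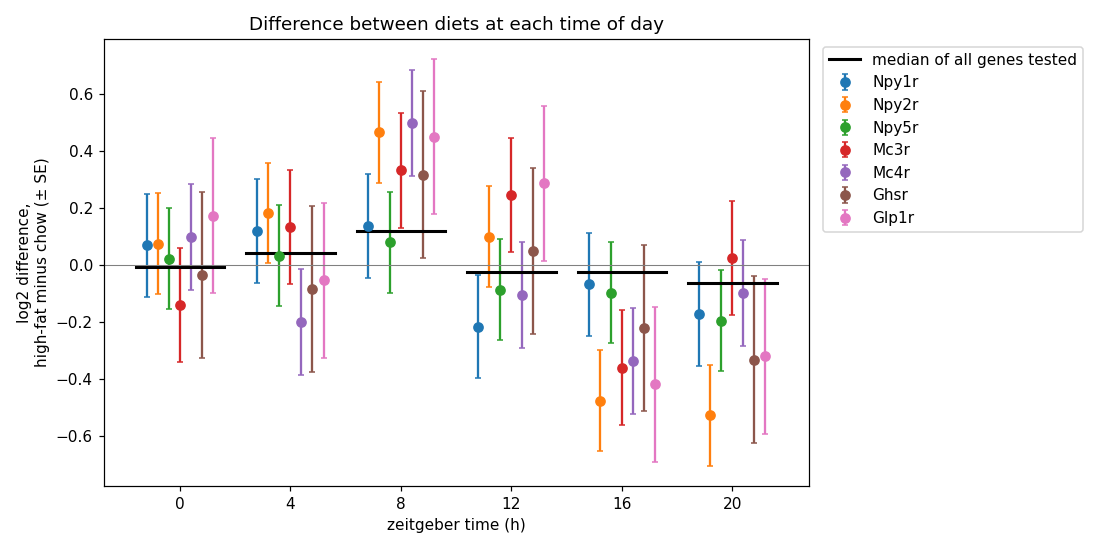
Log2 difference between diets (high-fat minus chow, vertical axis, points ± SE from limma, 3 libraries per group) at each zeitgeber time (hours, horizontal axis) for the 7 receptors; black bars are the median of all genes tested. All 7 points lay above 0 at ZT 8 and below 0 at ZT 16, with SEs from 0.18 to 0.29. They include Npy2r, whose time course was known when it was chosen. At ZT 8, 5 of 7 were above 0 with FPKM as deposited and 6 of 7 with median-of-ratios factors. At ZT 16, 6 of 7 were below 0 without the striatum-rich libraries.

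The receptors' median difference between diets was largest at ZT 8 and ZT 16. Medians and counts over the 7 at these hours include Npy2r, whose time course was known when it was chosen. The share of all genes with a higher or a lower mean under high-fat diet was not computed at either hour. At ZT 8 all 7 means were higher under high-fat diet, with log2 differences from 0.08 for Npy5r to 0.50 for Mc4r and a median of 0.33. The median of all genes was 0.12 at that hour and −0.01 when libraries were scaled by median-of-ratios size factors. With those factors Npy5r turned to −0.04 and 6 of 7 receptors were higher, and with FPKM as deposited Npy1r and Npy5r turned to −0.01 and −0.04.

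Mc4r, the receptor whose loss causes obesity in mice, read 4.38, 2.62 and 3.91 under chow at ZT 8 and 4.86, 5.30 and 6.27 under high-fat diet. Mc3r, a melanocortin receptor linked to feeding time and energy partitioning, read 4.46, 4.13 and 3.79 under chow and 4.81, 5.49 and 6.08 under high-fat diet. Glp1r read 5.36, 5.84 and 5.18 under chow and 7.78, 9.36 and 6.52 under high-fat diet. After rescaling, these 3 groups of high-fat libraries did not overlap the chow libraries, as was so for 14% of all genes in that direction. In FPKM as deposited, Glp1r still did not overlap, but Mc4r and Mc3r did. High-fat replicate 2 then read 1.61 for Mc4r and 1.66 for Mc3r, against 1.73 and 1.76 in chow replicate 1.

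By limma, the ZT 8 differences were 0.50 (SE 0.19) for Mc4r, 0.33 (SE 0.20) for Mc3r and 0.45 (SE 0.27) for Glp1r, with adjusted p of 0.273, 0.376 and 0.377. Of the 6 tested receptors 0 were called, where 0% of all genes were, and 1 of 6, Mc4r, had an unadjusted p under 0.05, as did 16.1% of all genes. Ghsr was higher by 0.32 (SE 0.29), Npy1r by 0.14 (SE 0.18) and Npy5r by 0.08 (SE 0.18), and their groups overlapped. Without high-fat ZT 8 replicate 2, Npy1r and Npy5r were at −0.05 and −0.03.

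At ZT 16 all 7 means were lower under high-fat diet, with a median log2 difference of −0.34, against −0.02 over all genes. Mc3r read 7.81, 5.95 and 6.02 under chow and 5.81, 5.57 and 3.55 under high-fat diet. After rescaling it therefore did not overlap in either hour, in opposite directions. As deposited it overlapped in both, at ZT 16 with 2.25 in high-fat replicate 1 against 2.23 in chow replicate 2. In rescaled values, Npy2r and Mc3r were the 2 receptors whose high-fat libraries all lay below chow, as did those of 12.3% of all genes. For Npy2r this belongs to the time course known when it was chosen.

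Mc4r read 4.76, 5.99 and 6.81 under chow at ZT 16 and 6.18, 4.54 and 2.94 under high-fat diet, and Glp1r 5.98, 8.83 and 8.69 against 6.46, 7.27 and 3.53. Both pairs overlapped. The lowest value of Mc3r, Mc4r, Ghsr and Glp1r in this high-fat group was in the striatum-rich replicate 3. Without it the log2 differences moved from −0.36 to −0.17 for Mc3r, from −0.34 to −0.11 for Mc4r and from −0.42 to −0.15 for Glp1r, and Ghsr turned from −0.22 to 0.09. Npy1r and Npy5r, at −0.07 and −0.10, turned to 0.02 without high-fat ZT 16 replicate 1 and to 0.05 without replicate 2. By limma, adjusted p ran from 0.529 to 0.940 with it, and 0 of 6 were called, where 0% of all genes were. An unadjusted p under 0.05 was found for 0 of 6 and for 10.7% of all genes.

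At the other hours, none of the 6 receptors was called by limma. The log2 differences ran from −0.20 to 0.17 at ZT 0 and ZT 4, where 0 of 6 were called and 0% of all genes were. Unadjusted p-values under 0.05 were found for 0 of 6 at both hours, and for 3.9% and 1.5% of all genes. Without the liver-rich libraries, Npy1r, Mc3r and Ghsr changed sign at ZT 0, to −0.07, 0.04 and 0.06, and Ghsr and Glp1r at ZT 4, to 0.10 and 0.18.

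At ZT 12 the differences ran from −0.22 for Npy1r to 0.29 for Glp1r, with 0 of 6 called, where 0.00659% of all genes were. An unadjusted p under 0.05 was found for 0 of 6 and for 0.975% of all genes. Without the striatum-rich chow library of that hour Npy1r was at 0.01, Npy5r turned from −0.09 to 0.11 and Mc4r from −0.10 to 0.01. Ghsr turned from 0.05 to −0.03, Mc3r moved from 0.24 to 0.07 and Glp1r to 0.18.

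At ZT 20 the differences ran from −0.33 for Ghsr to 0.03 for Mc3r, with 0 of 6 called, where 0% were, and 0 of 6 under an unadjusted 0.05, where 3.99% were. Npy2r was the 1 receptor of the 7 without overlap at ZT 20, where 5.19% of all genes lay wholly lower under high-fat diet. Its time course was known when it was chosen, so its separation is a description and not a test against that share. High-fat ZT 20 replicate 3 held the lowest Glp1r (2.69), Ghsr (1.33) and Npy1r (10.3) of all 36 libraries, and without it the differences moved from −0.32 to 0.07 for Glp1r, from −0.33 to −0.05 for Ghsr and from −0.17 to −0.03 for Npy1r. Mc4r moved from −0.10 to 0.01 and Npy5r from −0.20 to −0.11.

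**Figure D3:**
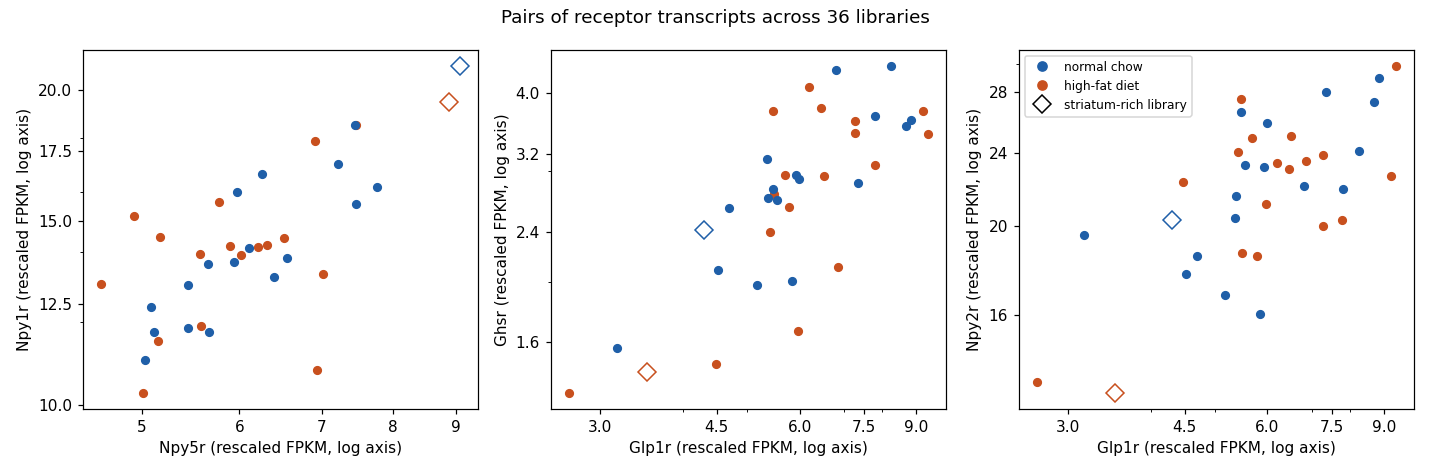
Levels of Npy1r against Npy5r, Ghsr against Glp1r and Npy2r against Glp1r (rescaled FPKM, log axes) in the 36 libraries, coloured by diet; open diamonds are the 2 striatum-rich libraries. Npy1r followed Npy5r (r = 0.73) and Ghsr followed Glp1r (r = 0.77), and the striatum-rich libraries were at the top for Npy1r and Npy5r and low for Glp1r.

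Across the 36 libraries some of the receptors varied together. For each of the 21 pairs, Pearson's r of log2 values was tested by permutation with 100000 resamples and adjusted over the 21. In all, 10 pairs passed, each with a positive r, and 7 of them also passed on deviations from the 12 group means. Which pairs passed depended on the libraries that stood apart. Without the striatum-rich pair 12 of the 21 passed, and without all 5 libraries 15 did. Npy1r with Mc3r, for example, went from r = 0.09 to 0.59 without the 5. All values share each library's scaling and tissue makeup, and libraries, not conditions, are the points. For a sense of scale, the share of all other tested genes that followed a receptor at least as closely is given beside the main pairs.

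The neighbours Npy1r and Npy5r had r = 0.73 and rho = 0.65 (permutation test, adjusted p = 0.000105 and 0.000315). Of 15172 other genes, 0.0725% followed Npy5r as closely as Npy1r did, and 0.593% followed Npy1r as closely as Npy5r did. In the chow libraries r was 0.89 and in the high-fat libraries 0.57, and on deviations from group means 0.71. The 2 libraries farthest from the median Npy1r were the striatum-rich pair, and without them r was 0.62. Without all 5 libraries that stood apart it was 0.65.

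Npy2r did not go with the other NPY receptors. Its r was 0.25 with Npy1r and 0.04 with Npy5r (permutation test, adjusted p = 0.244 and 0.894). Without the striatum-rich pair, however, r with Npy1r was 0.56 and passed. In those 2 libraries Npy1r was the highest and second highest of 36, at 21.1 and 19.5, as was Npy5r, at 9.07 and 8.89. Npy2r read 20.3 and 13.2 there, the latter its lowest value.

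Ghsr and Glp1r had the closest relation, with r = 0.77 and rho = 0.73 (permutation test, adjusted p = 0.000105 and 0.000210). It was 0.82 in chow, 0.74 in high-fat diet, 0.77 on deviations and 0.68 without the 2 libraries with the most extreme Ghsr. Among other genes, 0.613% followed Ghsr as closely as Glp1r did, and 1.7% followed Glp1r as closely as Ghsr did. Npy2r, Mc4r and Mc3r also had positive relations with this pair. The share of other genes that were as close depended on which receptor was taken as the reference. Npy2r had r = 0.67 with Glp1r, 0.63 with Ghsr, 0.61 with Mc4r and 0.43 with Mc3r, with adjusted p from 0.000140 to 0.0163 by permutation test. The shares of other genes that followed Npy2r as closely were 5% for Glp1r, 8.27% for Ghsr, 10.1% for Mc4r and 27.5% for Mc3r. Ghsr had r = 0.66 with Mc4r and 0.51 with Mc3r, and Glp1r 0.46 and 0.45, with adjusted p from 0.000210 to 0.0130 by permutation test. The shares that followed Ghsr as closely were 3.3% for Mc4r and 12.3% for Mc3r, and those that followed Glp1r as closely 26.6% and 27.3%. In the other direction, the shares that followed Mc4r as closely were 0.244% for Ghsr, 0.6% for Npy2r and 4.82% for Glp1r. Those that followed Mc3r as closely were 1.73% for Ghsr, 3.58% for Glp1r and 4.39% for Npy2r. For Npy2r, 4.51% of other genes followed Ghsr as closely and 7.89% followed Glp1r as closely. Spearman's correlation passed for all of these pairs, and r stayed between 0.39 and 0.61 without the 2 most extreme libraries. Of these, the pairs of Npy2r with Mc3r and of Glp1r with Mc3r and Mc4r did not pass on deviations, and those of Mc3r with Npy2r and with Glp1r did not pass without the striatum-rich pair (r = 0.35 and 0.35).

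Mc3r and Mc4r themselves, the 2 brain receptors for the same peptides, had r = 0.25 and did not pass. Mc4r with Ghsr was 0.39 in chow and 0.86 in high-fat diet, and Mc3r with Glp1r 0.66 in chow and 0.23 in high-fat diet. The differences between diets in these values were not tested.

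**Figure D4:**
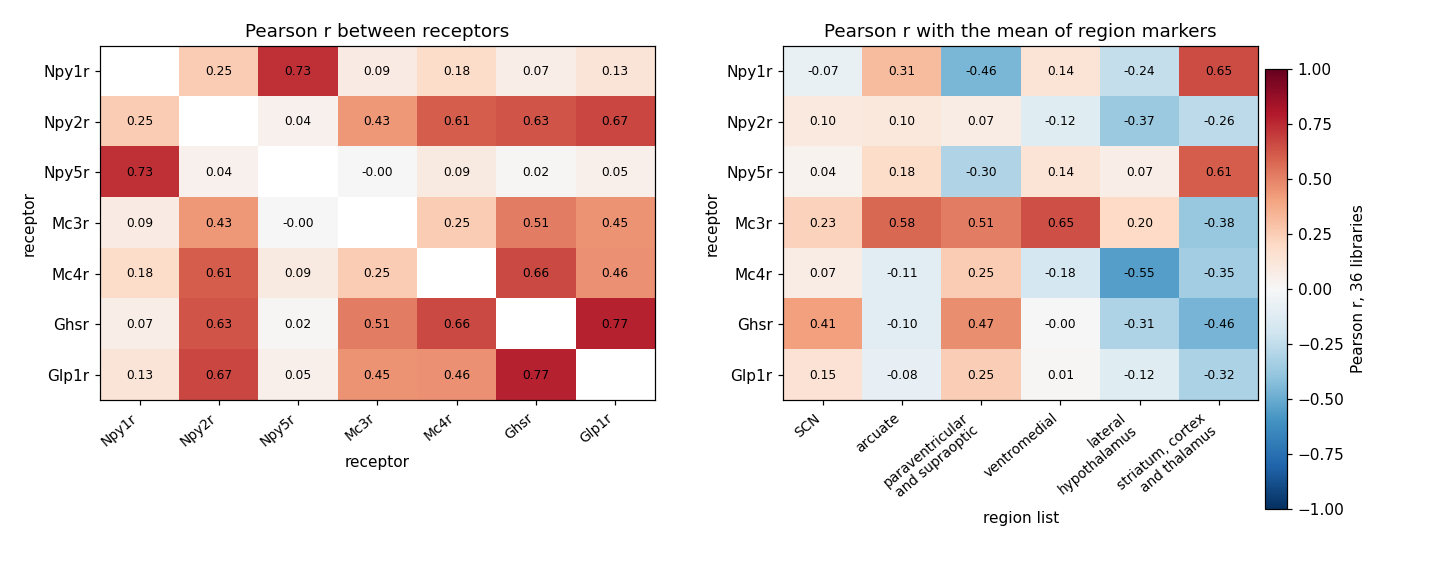
Pearson's r of log2 values over 36 libraries, between receptors (left) and between each receptor and the mean of each region's marker list (right); rows and columns name receptors and regions, and colour runs from −1 (blue) to 1 (red). Npy1r and Npy5r stood together with striatal, cortical and thalamic markers (0.65 and 0.61), and Mc3r with ventromedial and arcuate markers (0.65 and 0.58).

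Receptor levels were then compared with marker lists of 6 regions the dissection could hold. The share of all genes that followed each region's markers as closely was not computed, so no relation is read as particular to a receptor. Of 42 relations, 9 passed (permutation test, adjusted over the 42), 6 positive and 3 negative, and 8 of the 9 also passed on deviations from group means. The exception was the negative relation of Npy1r with paraventricular and supraoptic markers.

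Npy1r and Npy5r followed striatal, cortical and thalamic markers, with r = 0.65 and 0.61 (rho = 0.54 and 0.40; permutation test, adjusted p = 0.000420 and 0.00182 for r). For Npy5r rho did not pass (adjusted p = 0.0871 by permutation test). Without the striatum-rich libraries r was 0.50 and 0.33, and the relation of Npy5r no longer passed, so it rests on those libraries. Without all 5 libraries that stood apart the relation of Npy1r was 0.49 and did not pass either. Npy1r also had r = −0.46 with paraventricular and supraoptic markers, but rho did not pass, and r was −0.22 without the striatum-rich pair.

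Mc3r followed ventromedial markers (r = 0.65, rho = 0.67) and arcuate markers (r = 0.58, rho = 0.60), with adjusted p of 0.000420 and 0.00189 for r by permutation test. Without the 2 libraries farthest from the median Mc3r they were 0.59 and 0.50. Both held without the 5 libraries that stood apart, at 0.71 and 0.66. In chow they were 0.76 and 0.74, and in high-fat diet 0.49 and 0.36. Its relation with paraventricular and supraoptic markers, r = 0.51, did not pass by rho and was 0.15 without those 5.

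Mc4r ran against lateral hypothalamic markers, the orexin, melanin-concentrating hormone and related genes, with r = −0.55 and rho = −0.51 (permutation test, adjusted p = 0.00353 and 0.0149). It was −0.53 without the 2 libraries with the most extreme Mc4r, −0.58 without the 5 libraries, −0.44 in chow and −0.66 in high-fat diet. Ghsr had r = 0.47 with paraventricular and supraoptic markers and −0.46 with striatal, cortical and thalamic markers (permutation test, adjusted p = 0.0206 for each), and these were 0.33 and −0.34 without the 5 and no longer passed.

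SCN markers passed with none of the receptors over all 36 libraries. Ghsr was nearest, with r = 0.41 and an adjusted p of 0.0509 by permutation test, and 0.62 with an adjusted p of 0.00609 on deviations from group means. Npy2r had r = 0.10 with SCN markers and passed with no region over the 36 libraries. On deviations from group means it passed with lateral hypothalamic markers, at r = −0.51 with an adjusted p of 0.0254 by permutation test, against r = −0.37 over the libraries as they are. Glp1r passed with none either, its values running between −0.32 and 0.25.

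Transcripts of the peptides that act on these receptors varied far more between libraries than those of the receptors. Npy averaged 38.2 and ran from 13.7 to 157, with the highest value in the striatum-rich high-fat ZT 16 replicate 3. Pomc averaged 40.2 and ran from 4.71 to 293, and Agrp averaged 3.16 and ran from 0.736 to 19.1. Ghrl, which encodes ghrelin, averaged 3.49, between 0 and 8.34. Gcg, the precursor gene of glucagon-like peptide-1, averaged 0.0153 and was too low to test, and in the brain it is made in the hindbrain.

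Among the ligand genes tested, Npy, Pomc, Agrp and Ghrl, no difference between diets was detected by limma. The log2 differences were −0.18 (SE 0.27) for Npy, 0.24 (SE 0.51) for Pomc, −0.30 (SE 0.29) for Agrp and 0.20 (SE 0.23) for Ghrl, and none was called. Of 35 other genes of these pathways 34 were in the tables and 18 were tested. For diet 0 were called higher and 0 lower, where 0.0132% of all genes were called, and 0 had an unadjusted p under 0.05, where 2.56% did. The median difference was 0.02, with 10 of 18 above 0. Of the 10 other feeding receptors, among them Lepr, Insr and Mchr1, all 10 were tested and 0 were called. For a 24 h rhythm shared by both diets, limma called 0 of the 18, where 2.18% of all genes were called. The cholecystokinin receptor Cckbr was the 1 with an unadjusted p under 0.05, where 13.1% of all genes were. For a difference in rhythm between diets, Hcrtr2, Lepr and Htr2c had unadjusted limma p of 0.00775, 0.0108 and 0.0261. The rest of the 18 were above 0.05, which 13.2% of all genes fell under, and 0% of all genes were called.

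The genes whose levels were most like each receptor's over the 36 libraries were found by Pearson's r, without a test. Npy1r was most like Actn1, an actin crosslinker (r = 0.85), then Erlin1 and Syt6. Npy5r was most like Dclk3, a kinase (0.79), then Gpr83, a G protein-coupled receptor, and Prkar2b, a regulatory subunit of protein kinase A. Npy2r was most like Grb10, an adaptor of insulin and growth factor receptors (0.87), then Fgd5 and Smarcal1.

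Mc4r was most like Esr1, the oestrogen receptor alpha (0.75), then Brs3, a bombesin-family receptor, and Irs4, an insulin receptor substrate. Mc3r was most like H2-Q2 (0.78), whose reads can be shared with near-identical histocompatibility genes, then Adcyap1, the PACAP gene and one of the ventromedial markers, and Amigo2. Ghsr was most like Zfp92 (0.91), then Rps6ka6 and the receptor Gpr101. Glp1r was most like Plxnc1, a semaphorin receptor (0.87), then Pcgf5 and Zim3.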

How the data were processed

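RNA of an SCN-enriched region was sequenced in 36 libraries. Per the labels' protocols, fresh tissue was snap frozen, total RNA was isolated (RNeasy Micro Kit) and stranded mRNA libraries were built (Illumina TruSeq). Trimmomatic, TopHat and Cufflinks, and builds mm10 and GRCm38, are named per the submitters' processing notes, and versions are not given in the sources used here. The deposited values are FPKM, a unit inferred from the values and from Cufflinks. The authors deposited 1 table per diet, and 0 columns were left without a sample.

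Values were rescaled in each library to 1000000 over the shared rows, since FPKM sums ran from 302899 to 432336, and transformed as log2(value + 1). Rows with a mean of at least 1 in the fit were tested with limma 3.58.1 (R 4.3.3) with a mean-variance trend, with Benjamini-Hochberg adjustment over all rows and calls made under 0.05. Diet was tested with time as a factor, at each time as contrasts of 12 group means, and by the diet by time terms. Rhythms were tested with a cosine and a sine of 24 h, and the fit was tested on simulated data. FPKM gives no read depth, so no counting interval was computed. Correlations used NumPy 2.4.6, SciPy 1.17.1 and 100000 permutations, two-sided. All 7 receptors are named, with the 3 genes most alike to each and the ligands Npy, Agrp, Pomc, Ghrl and Gcg. The receptors, gene lists and marker lists were chosen with earlier results of these data known. Motif searches used RefSeq promoters. Alternatives were other scaling, pseudocount, filter and libraries, a replicate block, region scores as covariates and time as a factor.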

Additional observations from a re-analysis of the deposited data

How the results depend on the processing

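In each of the 10 alternatives and in fits that left out 1 library, 0 of the tested receptors were called in any diet or rhythm comparison. Npy2r is left out of this, except for diet over the whole day. The smallest adjusted p by limma was 0.0834, for Mc4r at ZT 8 without high-fat ZT 8 replicate 1. That library also moved the ZT 8 count of all genes, 0 to 1099 over the fits. The choice of the liver-rich and striatum-rich libraries was made after seeing the data. Counts of all genes called moved as follows, with causes not tested. At ZT 0 the count was 1 with no filter and with region scores as covariates (0 to 1 leaving out a library). At ZT 12 it was 0 without rescaling and with covariates, and 2 without the 5 libraries (0 to 2). At ZT 16 it was 1 without the liver-rich libraries (0 to 1), and for diet by time 1 without the striatum-rich libraries or the 5 (0 to 1). The chow rhythm count of 128 became 260 with median-of-ratios factors, 1 with covariates, 50 with time as a factor, 204 without the liver-rich libraries and 433 without the 5 (48 to 162). The high-fat rhythm count of 11 became 5 with no filter, 6 with covariates, 2 with time as a factor and 7 without the 5 (4 to 13). Region relations that passed went from 9 to 14 without rescaling, and to 5, 4 and 3 without the liver-rich, the striatum-rich and the 5 libraries.

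With the replicate number as a block the high-fat rhythm count was 7, and no other count moved by over 1.5 times. The numbers did not meet the bar for pairing, a correlation of deviations over 0.1 in every same-numbered pair: 61 of 198 met it, the lowest was −0.35, and the mean was 0.04 against −0.02 for other pairs. By mean correlation, 25 of 36 libraries correlated best with their own number, a hint from the data and not from the design.

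Small diet differences changed sign. Over the day, Glp1r was −0.037 with covariates, Npy2r 0.020 and Mc4r 0.039 without the striatum-rich libraries, and Mc4r 0.054 and Ghsr 0.029 without the 5. At ZT 8, FPKM as deposited gave −0.0057 for Npy1r and −0.041 for Npy5r, and median-of-ratios factors −0.042 for Npy5r. At ZT 0, Ghsr was 0.0098 with FPKM as deposited and 0.20 with covariates and Mc3r 0.18 with covariates, and without the liver-rich libraries or the 5 Npy1r was −0.068, Mc3r 0.037 and Ghsr 0.057. At ZT 4, Npy5r was −0.0073 with median-of-ratios factors, Npy1r −0.071 and Ghsr 0.0058 with covariates, and Ghsr 0.10 and Glp1r 0.18 without the liver-rich libraries or the 5. At ZT 12, Ghsr was −0.21 with covariates, and without the striatum-rich libraries or the 5 Npy1r was 0.013, Npy5r 0.11, Mc4r 0.012 and Ghsr −0.035. At ZT 16 Ghsr was 0.089 without the striatum-rich libraries or the 5, and at ZT 20 Mc3r was −0.091 with covariates. Leaving out 1 library, the day-wide ranges were −0.053 to 0.016 for Npy1r, −0.065 to 0.022 for Npy2r, −0.064 to 0.019 for Mc4r, and −0.019 to 0.085 for Glp1r. At ZT 0 they were −0.10 to 0.20 for Npy1r, −0.092 to 0.17 for Npy5r, −0.36 to 0.039 for Mc3r and −0.11 to 0.068 for Ghsr. At ZT 4 they were −0.33 to 0.15 for Ghsr, −0.35 to 0.18 for Glp1r, −0.036 to 0.27 for Mc3r and −0.093 to 0.16 for Npy5r. At ZT 12 they were −0.13 to 0.34 for Ghsr, −0.38 to 0.013 for Npy1r, −0.21 to 0.11 for Npy5r and −0.23 to 0.052 for Mc4r. At ZT 8 they were −0.055 to 0.24 for Npy1r and −0.026 to 0.18 for Npy5r. At ZT 16 they were −0.21 to 0.017 for Npy1r, −0.29 to 0.047 for Npy5r and −0.40 to 0.089 for Ghsr. At ZT 20 they were −0.082 to 0.18 for Mc3r, −0.18 to 0.0078 for Mc4r and −0.66 to 0.071 for Glp1r.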
